A study of Rattus norvegicus with 44 samples.

Results

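The genes of the mitochondrial respiratory chain and ATP synthase were followed in rat liver after oral dosing with the development compounds R1 and R2. A feature of the array (a probe set) was taken as a member when its only annotated gene symbol began with Nduf, Sdha to Sdhd, Uqcr, Cox4 to Cox8 or Atp5, or was Cycs or Cyc1. This rule found 102 of the 8740 features that are not controls, and these represent 56 of the 4736 genes with a feature of their own. Of the members, 92 features of 55 genes reached the filter on low signal (a highest group mean of at least 9.17) and were tested among 6361 features. They are 27 genes of complex I, 2 of complex II, 4 of complex III, 12 of complex IV and 10 of ATP synthase. Genes were assigned by the start of their symbol. Complex I here thus includes the assembly factor Ndufaf3, the complex IV associated subunit Ndufa4 and its relative Ndufa4l2. No feature was annotated to Cycs alone, and 10 member features lay below the filter in every group. The 1 member gene with no tested feature was the Cox6c pseudogene Cox6c-ps1.

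The respiratory chain passes electrons from NADH (complex I) and succinate (complex II) through complex III and cytochrome c to oxygen at complex IV, and pumps protons out of the mitochondrial matrix as it does so. ATP synthase lets the protons flow back through its membrane part, which turns a central stalk inside the catalytic head, called F1, where ATP is made. In liver this supplies the ATP for glucose production, urea synthesis and detoxification. The genes measured here are those encoded in the nucleus.

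Male Wistar rats, 8 weeks old, were dosed by gavage once a day with a compound or with citric acid buffer as the vehicle, and a slice of the left lateral lobe was taken 24 h after the last dose. Whether each of the 44 arrays came from an animal of its own is not stated in the labels, so p-values measure only the spread between arrays, which may be technical. Numbers of livers and values of n, here and in the figures, count arrays. In study 1 at 24 h there were 3 vehicle livers, 4 with R1 at 10, 3 with R1 at 30 and 3 with R1 at 100 mg/kg/day. In study 2 at 336 h there were 4 vehicle livers, 5 with R1 at 20 and 4 with R1 at 100 mg/kg/day. In study 3 at 336 h there were 5 vehicle livers and 4 with R1 at 30 mg/kg/day. In study 4 at 24 h there were 4 vehicle livers and 5 with R2 at 300 mg/kg/day. The structures of R1 and R2 and the number of lots or litters behind the animals were not given in the sources used here.

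Values are array signals, which have no absolute unit and can be compared for a feature between arrays but not between genes. Each gene is represented by its tested feature with the highest mean, and differences are on a log2 scale, treated minus vehicle, with the standard error of the limma fit. A feature was called when its Benjamini-Hochberg adjusted p over all 6361 features was under 0.05. Between arrays of a group the correlation of log2 signals was 0.924 to 0.974. All 7 hepatocyte markers on the array lay above the filter in every group, and 5 to 7 of 7 skeletal muscle markers lay under it. The muscle isoform member Cox8b reached it in 2 groups, and the muscle isoform Cox6a2 read group means of 33.2 to 64.3, above it in all 11. Arrays 1 and 2 of the R2 group stood apart: the ratio of the 3′ to the 5′ control feature of Gapdh was 1.87 and 2.01 there, against 0.96 to 1.21 in the other R2 arrays and 1.14 to 1.29 in their vehicle arrays. A bulk value cannot tell fewer cells of a type from less RNA per cell.

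Promoter windows are printed here for 4 of the genes with calls described next, and not for others such as Atp5f1a and Atp5po. The windows run from 250 bases before to 50 bases after the start site in RefSeq's annotation of GRCr8, 5′ to 3′ along the gene. Capitals mark letters of 5 motifs searched on both strands: CCGGAAG (ETS factors such as GABP), GCGCATGC (NRF1), AAGGTCA (ERR), AAGATGG (YY1) and GGGCGG (SP1); the NRF1 letters can match both strands at overlapping positions. Atp5if1 encodes the inhibitor of ATP synthase and lies on chr5:150026628-150026927, minus strand. Atp5f1c encodes the gamma subunit, the rotating stalk, at chr17:73333435-73333734, plus strand. Atp5f1e encodes the epsilon subunit, also of the stalk, at chr3:183680123-183680422, minus strand. Cox8a encodes a small subunit of complex IV at chr1:213833574-213833873, minus strand.
Atp5if1: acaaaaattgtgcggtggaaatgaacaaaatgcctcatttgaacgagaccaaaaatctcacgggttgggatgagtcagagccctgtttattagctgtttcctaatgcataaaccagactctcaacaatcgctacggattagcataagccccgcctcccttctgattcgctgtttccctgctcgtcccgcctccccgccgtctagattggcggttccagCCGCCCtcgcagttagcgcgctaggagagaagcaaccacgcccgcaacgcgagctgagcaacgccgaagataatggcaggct
Atp5f1c: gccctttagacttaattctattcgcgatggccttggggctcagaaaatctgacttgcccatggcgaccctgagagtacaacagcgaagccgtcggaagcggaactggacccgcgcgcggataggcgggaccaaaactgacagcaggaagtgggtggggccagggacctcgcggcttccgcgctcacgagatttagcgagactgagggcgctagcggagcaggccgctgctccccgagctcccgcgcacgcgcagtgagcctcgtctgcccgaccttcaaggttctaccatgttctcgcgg
Atp5f1e: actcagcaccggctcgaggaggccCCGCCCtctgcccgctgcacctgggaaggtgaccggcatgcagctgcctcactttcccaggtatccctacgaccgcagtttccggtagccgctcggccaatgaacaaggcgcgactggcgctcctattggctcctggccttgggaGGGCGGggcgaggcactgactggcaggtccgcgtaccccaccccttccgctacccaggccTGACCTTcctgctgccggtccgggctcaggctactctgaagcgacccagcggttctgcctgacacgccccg
Cox8a: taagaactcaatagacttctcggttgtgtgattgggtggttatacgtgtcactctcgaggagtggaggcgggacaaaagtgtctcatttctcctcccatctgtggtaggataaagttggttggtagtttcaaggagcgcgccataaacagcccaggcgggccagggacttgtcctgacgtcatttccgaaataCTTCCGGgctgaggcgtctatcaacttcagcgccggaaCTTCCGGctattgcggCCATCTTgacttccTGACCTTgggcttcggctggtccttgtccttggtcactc
The window of Atp5if1 held 1 SP1 match, that of Atp5f1e an ERR match and 2 SP1 matches, and that of Cox8a 2 ETS matches, an ERR match and a YY1 match. No match lay in the Atp5f1c window, which says only that these letters are not there. Of the windows not printed, that of Atp5f1a held an ETS, an ERR and an SP1 match. That of Atp5po held the NRF1 letters on both strands and a YY1 match. Windows were found for 47 of the 56 member genes. Of these, 27.7% held the YY1 letters, against 7.3% of all 27457 windows. The ETS letters stood in 21.3% of member windows and 9.22% of all, the ERR letters in 10.6% and 4.37%, the NRF1 letters in 4.26% and 2.66%, and the SP1 letters in 44.7% and 34.9%. The 27457 windows were not limited to genes on the array or expressed in liver, and no matched set of genes was compared. A match is a description of the sequence, not a measured binding site.

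At 24 h, R1 at 100 mg/kg/day was accompanied by lower signals of F1 subunits. Atp5f1a (the alpha subunit, which with beta forms the catalytic ring), Atp5f1c (gamma) and Atp5f1e (epsilon) fell, and no member rose. These 3 of 92 member features (3.26%) compare with 2.44% of all tested features called lower, so the share of members was near the background. Of the 55 genes, 50 had a negative difference, with a median of -0.29 against -0.04 over all features, and all 10 ATP synthase genes were negative.

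The alpha subunit Atp5f1a read 576, 528 and 587 in the vehicle livers and 269, 427 and 415 after R1 at 100 mg/kg/day. The groups did not overlap, and array 1 of the treated group was the lowest. The means were 563 ± 31.3 and 370 ± 88.3 (SD, n = 3 each), a difference of -0.63 ± 0.17 (limma, adjusted p = 0.0163). At 30 mg/kg/day the signals were 382, 508 and 479, and at 10 mg/kg/day 435, 548, 461 and 515. The order of the group means thus followed the dose, but the differences from vehicle at 30 (-0.31 ± 0.17, adjusted p = 0.558) and 10 mg/kg/day (-0.21 ± 0.16, adjusted p = 0.725) did not pass the test.

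The gamma subunit Atp5f1c read 772, 770 and 873 in the vehicle livers and 397, 507 and 623 at 100 mg/kg/day, with no overlap. The difference was -0.68 ± 0.21 (limma, adjusted p = 0.0347). Signals were 508, 720 and 600 at 30 mg/kg/day and 738, 770, 632 and 687 at 10 mg/kg/day, and neither group passed the test (-0.41 ± 0.21 and -0.19 ± 0.19). The epsilon subunit Atp5f1e read 1092, 1103 and 1010 in the vehicle livers and 691, 632 and 783 at 100 mg/kg/day, again without overlap. Its difference was -0.61 ± 0.18 (limma, adjusted p = 0.0315), and its second feature gave -0.49 ± 0.17 (adjusted p = 0.0706). At 30 mg/kg/day Atp5f1e read 738, 926 and 834, below every vehicle array, with a difference of -0.36 ± 0.18 that did not pass the test.

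The other parts of the enzyme gave smaller values at this dose and time. Atp5f1b, the catalytic beta subunit, read 1593 ± 170.0 against 2087 ± 69.6 in vehicle (SD, n = 3 each), a difference of -0.39 ± 0.16 with an unadjusted p of 0.015 and an adjusted p of 0.139. The delta subunit Atp5f1d differed by -0.37 ± 0.20 and the peripheral stalk genes Atp5pd, Atp5pb and Atp5pf by -0.38, -0.30 and -0.09. Atp5po, the stalk subunit that gives oligomycin sensitivity, differed by -0.14 ± 0.14. The inhibitor Atp5if1 differed by -0.09 ± 0.26, with 81.7, 68.7 and 72.8 in the vehicle and 73.4, 74.8 and 61.9 in the treated livers.

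With 3 livers a group, between 0 and 3 members were called when 1 array was left out. No member was called without vehicle array 1, vehicle array 3 or R1 array 1, and 1 member was called without vehicle array 2 or R1 array 2. The 3′ to 5′ ratio of the beta-actin control moved with the groups: it was 2.15 to 3.43 in the vehicle arrays and 1.45 to 2.35 at 100 mg/kg/day. The Gapdh ratio was 1.33 to 1.75 in vehicle, 1.02 to 1.36 at 100 and 1.51 to 1.78 at 30 mg/kg/day. Its highest vehicle value, 1.75, was that of array 1, without which no member was called. The summed signal of the 7 hepatocyte markers was 48321 to 50340 in vehicle and 45313 to 47112 at 100 mg/kg/day, with Cps1, a mitochondrial urea cycle enzyme, the called marker (-1.05 ± 0.27, adjusted p = 0.0087). The 5 pancreatic acinar markers summed to 330 to 340 in vehicle and 208 to 294 at 100 mg/kg/day, without overlap, and none of the 3 tested was called. The part of these ratios and markers in the result was not tested.

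**Figure D1:**
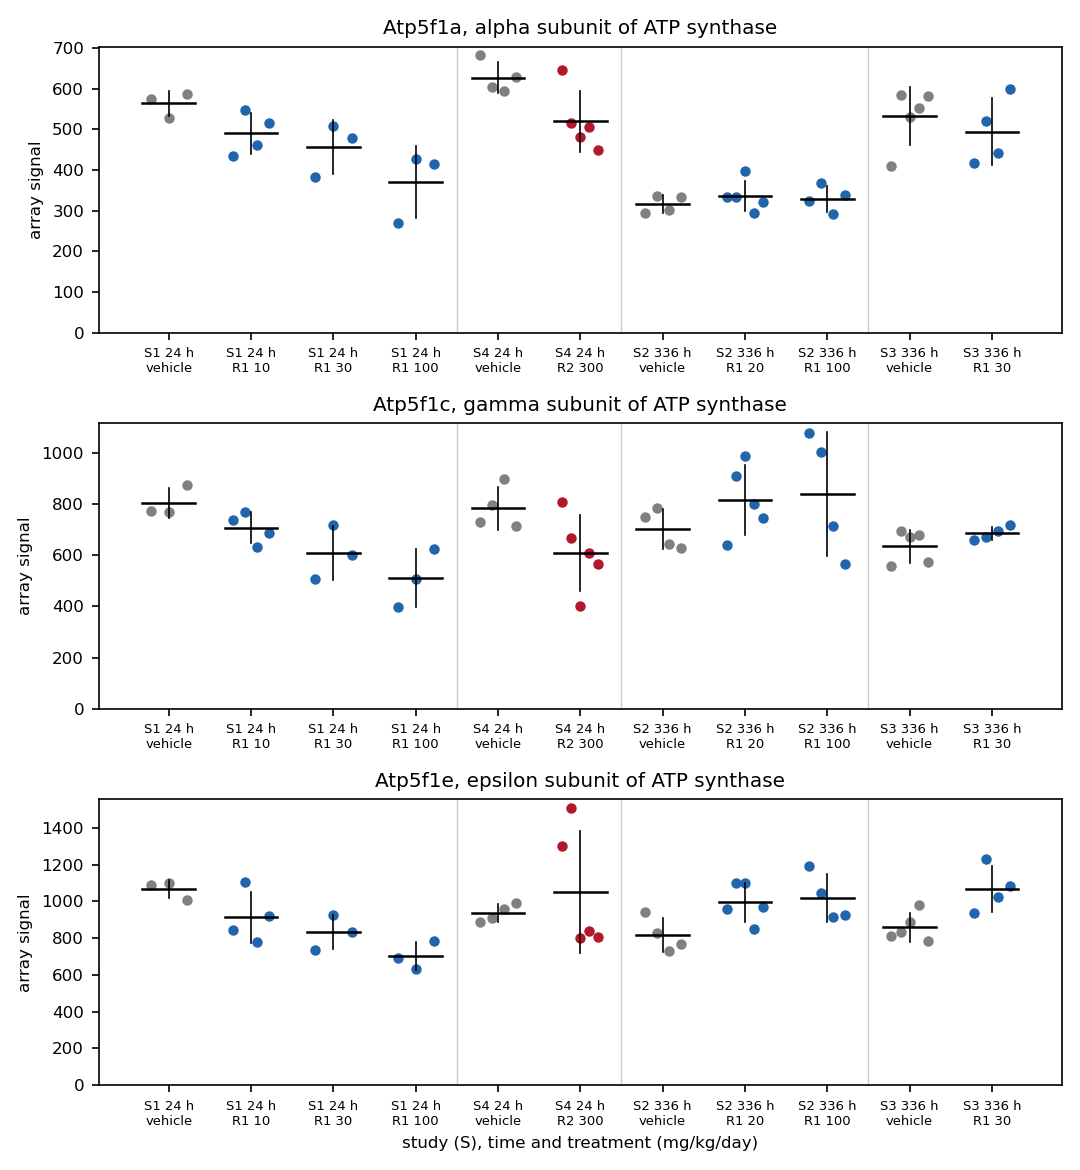
Array signal (vertical axis, linear from 0, no absolute unit) of the F1 subunits Atp5f1a, Atp5f1c and Atp5f1e in each of the 44 livers, by study, time and treatment (horizontal axis, doses in mg/kg/day). Points are livers (grey vehicle, blue R1, red R2), horizontal lines are group means and vertical lines 1 SD. In study 1 the R1 100 livers lie below all vehicle livers in the 3 panels, while at 336 h the R1 100 livers of study 2 overlap their vehicle.

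The lower doses at 24 h gave no member call. At 10 mg/kg/day 0 of 92 features passed the test (limma; 4 at an unadjusted p under 0.05), against 1.24% of all features called in either direction. At 30 mg/kg/day it was again 0 of 92 (limma; 2 at an unadjusted p under 0.05), against 1.73% of all features. The 3 comparisons share the same 3 vehicle livers. All 10 ATP synthase genes were negative at 30 mg/kg/day (median -0.34) and 9 of 10 at 10 mg/kg/day (median -0.19). The direct test of 100 against 10 mg/kg/day called 1 of 92 features, against 1.67% of all features called lower. This was the second feature of Atp5f1e, which read 509 ± 20.5 at 100 (n = 3) and 820 ± 146 at 10 mg/kg/day (n = 4), a difference of -0.67 ± 0.16 (adjusted p = 0.00786). That feature was not below vehicle at 10 mg/kg/day (0.17 ± 0.16), and the feature representing the gene gave -0.37 ± 0.17 between the doses (adjusted p = 0.267).

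After 336 h of R1 in study 2 the called gene at both doses was the inhibitor of the enzyme. Atp5if1 (ATPase inhibitory factor 1) binds the F1 head when the matrix turns acidic and stops the enzyme from splitting ATP. It rose at 20 and at 100 mg/kg/day, about 2-fold in each. At 20 mg/kg/day the 2 called members of 92 (2.17%) were both features of Atp5if1, against 2.55% of all features called higher. At 100 mg/kg/day 4 of 92 (4.35%) were called, against 5.11% of all features called higher, and these were 3 features listed under Atp5if1 and 1 of Atp5po. No member fell at either dose.

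The main feature of Atp5if1 read 114, 95.3, 71.4 and 82.9 in the vehicle livers of study 2. It read 176, 202, 221, 210 and 128 at 20 mg/kg/day and 258, 185, 183 and 186 at 100 mg/kg/day. Every treated liver lay above every vehicle liver. The means were 90.8 ± 18.1 (SD, n = 4), 187 ± 37.2 (n = 5) and 203 ± 36.8 (n = 4). The differences from vehicle were 1.02 ± 0.21 at 20 mg/kg/day (limma, adjusted p = 0.00118, 2.02-fold) and 1.14 ± 0.22 at 100 mg/kg/day (adjusted p = 2.1e-04, 2.20-fold). Between the doses the difference was 0.12 ± 0.21 (adjusted p = 0.914), so no difference between 20 and 100 mg/kg/day was detectable with these numbers of livers.

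A second feature of Atp5if1 gave 68.5, 63.8, 71.5 and 67.7 in the vehicle livers, 118, 107, 152, 114 and 81.6 at 20 mg/kg/day and 161, 99.8, 131 and 122 at 100 mg/kg/day. It passed the test at both doses (0.70 ± 0.17, adjusted p = 0.00642, and 0.87 ± 0.18) without overlap. Across the 44 arrays its log2 signals correlated with the main feature at r = 0.811. This was the highest correlation of the second feature but ranked 5 for the main one, after features of Nudt6 (0.832), Aprt (0.826) and Gnptg (0.817) among others. The arrays include the treated groups, so this value holds the shared rise.

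Other values moved with these groups. The beta-actin ratio was 2.02 to 3.06 in the vehicle arrays of study 2, 1.67 to 2.15 at 20 and 1.53 to 2.31 at 100 mg/kg/day. Of 4 bile duct markers on the array 1 was called, Epcam, which rose from 25.6 to 55.5 and 86.8, and the list summed to 42.1 to 86.8 in vehicle, 62.1 to 108 at 20 and 81.6 to 181 at 100 mg/kg/day. The only Kupffer cell marker on the array, Clec4f, fell from 362 to 193 and 144. Hepatocyte markers summed to 45461 to 47764, 37953 to 45502 and 43014 to 47250. The 5 stellate cell and fibroblast markers were lower in both treated groups without overlap (479 to 713, 303 to 381 and 282 to 420), as were the 4 endothelial markers (141 to 175, 96.0 to 133 and 77.2 to 128). The 3 red blood cell markers summed to 5208 to 6958 in vehicle, 4109 to 5547 at 20 and 2593 to 5044 at 100 mg/kg/day, where they did not overlap vehicle. The part of these values in the rise of Atp5if1 was not tested.

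The remaining tested feature listed under Atp5if1, M35300_f_at, behaved differently and its gene is uncertain. It read 353, 362, 27.1 and 286 at 100 mg/kg/day against 34.9, 31.4, 30.7 and 41.1 in vehicle, so 3 of 4 treated livers were high and array 3 was not. At 20 mg/kg/day it read 12.8 to 29.3, below its vehicle. Its correlation with the other 2 features was 0.391 and 0.398, while the feature most like it over the 44 arrays was of Spink1l (r = 0.765), a relative of a pancreatic trypsin inhibitor gene. The name endings of these 3 features mark sets whose probes can match several related sequences. Both calls for this feature at 100 mg/kg/day, against vehicle (2.30 ± 0.46) and against 20 mg/kg/day (2.98 ± 0.44, adjusted p = 2.66e-06), are given for the feature only.

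**Figure D2:**
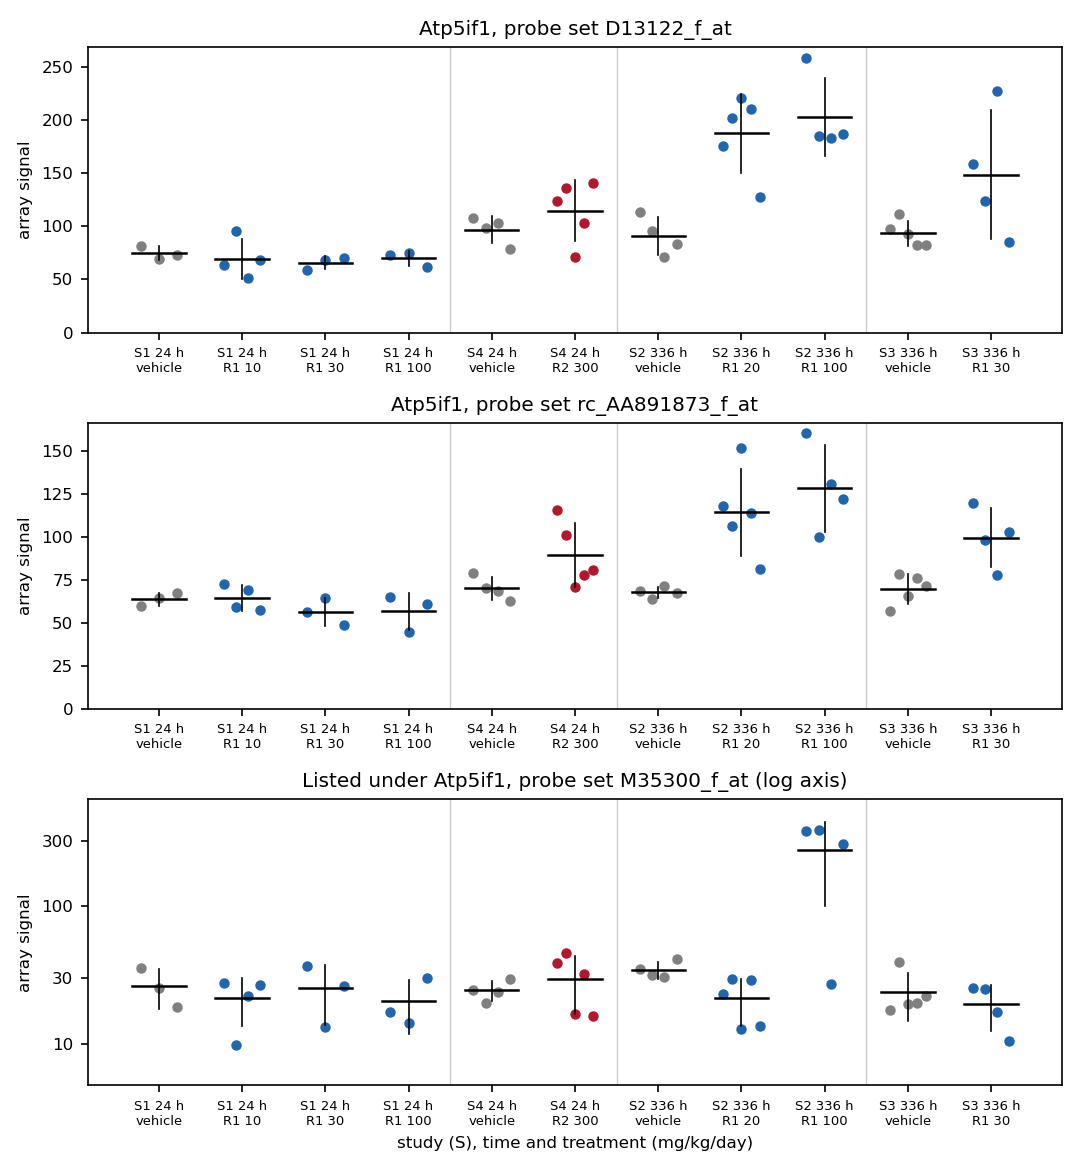
Array signal of the 3 tested features listed under Atp5if1 (vertical axes, linear from 0 in the upper panels and logarithmic in the lower panel) in each liver by study, time and treatment (mg/kg/day). Points are livers, horizontal lines group means and vertical lines 1 SD; the R1 livers of study 2 lie above their vehicle in the upper panels, and M35300_f_at is high in 3 of 4 livers of the R1 100 group at 336 h.

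In study 3, R1 at 30 mg/kg/day for 336 h gave Atp5if1 signals of 158, 123, 227 and 85.2, against 96.9, 111, 92.8, 82.3 and 82.3 in vehicle. Of the 4 treated livers, 3 lay above every vehicle liver and array 4 among them. The difference of 0.58 ± 0.21 did not pass the test (limma, adjusted p = 0.0708), nor did the second feature (0.49 ± 0.17, adjusted p = 0.0501). In all, 0 of 92 member features were called there (limma; 8 at an unadjusted p under 0.05), against 11.3% of all features called in either direction. A single member, 1 of 92, was called higher when R1 array 3, R1 array 4 or vehicle array 2 was left out.

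Atp5po rose with R1 at 100 mg/kg/day for 336 h. It read 1490, 1413, 1110 and 1490 in vehicle and 1826, 1617, 2122 and 1841 in the treated livers, without overlap. The difference was 0.43 ± 0.12 (limma, adjusted p = 0.0143), and its second feature gave 0.37 ± 0.15 (adjusted p = 0.110). At 20 mg/kg/day it read 1543, 1480, 1793, 1697 and 1710, a difference of 0.26 ± 0.12 that did not pass (adjusted p = 0.252), and at 30 mg/kg/day in study 3 the difference was 0.04 ± 0.12. The call at 100 mg/kg/day was lost without vehicle array 3, without R1 array 3 and with study 2 fitted alone (highest adjusted p = 0.111).

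The F1 subunits that fell at 24 h were not lower at 336 h. At 100 mg/kg/day in study 2 Atp5f1c read 1078, 1001, 714 and 564 against 751, 785, 644 and 626 in vehicle, and Atp5f1e read 1195, 1048, 915 and 926 against 944, 830, 731 and 768. Both pairs of groups overlapped and neither difference passed (0.22 ± 0.18 and 0.32 ± 0.16). Atp5f1a read 323, 367, 291 and 337 against 295, 336, 301 and 334, a difference of 0.05 ± 0.15.

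The difference between times was tested directly as the effect of R1 at 100 mg/kg/day at 336 h minus that at 24 h. It was higher for 5 of 92 features (5.43%), against 2.17% of all features called higher. These were 3 features listed under Atp5if1 (1.23 ± 0.34 for the main one, limma, adjusted p = 0.0206), Atp5f1e (0.92 ± 0.24, adjusted p = 0.0126) and Atp5f1c (0.90 ± 0.27, adjusted p = 0.0409). The 5 features thus stand for 3 genes, and 1 of those listed under Atp5if1 is M35300_f_at, whose gene is uncertain. The call of Atp5f1e held under all 23 alternative fits, that of the main Atp5if1 feature was lost under 4 and that of Atp5f1c under 12 (highest adjusted p = 0.170). Of these losses 4 and 9 came from leaving out 1 array: for Atp5if1 study 1 vehicle array 1 or R1 array 3 and study 2 vehicle array 3 or R1 array 1, and for Atp5f1c each study 1 vehicle array, study 1 R1 array 1 or 2, study 2 vehicle array 3 or 4, and study 2 R1 array 1 or 2. For Atp5f1e and Atp5f1c the difference combines a fall at 24 h with a value above vehicle at 336 h that did not itself pass the test. Atp5f1a gave 0.68 ± 0.23 (adjusted p = 0.0713). All 10 ATP synthase genes were positive, with a median of 0.56 against a median of 0.10 for the 27 complex I genes and 0.00 over all features. This direction was not particular to ATP synthase. The array medians of the 4 complex III genes averaged 8.58 log2 units at 24 h, against 8.98 in vehicle. At 336 h they averaged 9.16 against 8.90, with overlap. For ATP synthase these means were 8.93 against 9.35 at 24 h and 9.43 against 9.42 at 336 h. Times were run as different studies, so time and study cannot be told apart. At 30 mg/kg/day the same test called 0 of 92 features (limma; 6 at an unadjusted p under 0.05), against 0.959% of all features in either direction, and again all 10 ATP synthase genes were positive (median 0.41).

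Direct comparison of 100 with 20 mg/kg/day at 336 h called 2 of 92 features, against 4.07% of all features in either direction. They were M35300_f_at and, lower, a dim feature of Ndufa4l2, a relative of the complex IV associated subunit Ndufa4, which read 2.73 against 12.3. The feature representing Ndufa4l2 differed by -0.18 ± 0.36 between the doses.

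Complex I, the NADH dehydrogenase, had 0 called genes of 27 in every R1 comparison with vehicle. Of all features, 1.24% (10 mg/kg/day at 24 h) to 11.3% (30 mg/kg/day at 336 h) were called in either direction there. At such shares few of 27 genes would be called, so the count does not set complex I apart. The widest value was that of Ndufb6, a membrane arm subunit, at 100 mg/kg/day for 336 h. It read 582, 716, 608 and 331 in vehicle and 61.0, 352, 351 and 275 in the treated livers, with array 1 far lower. Its difference of -1.32 ± 0.46 missed the threshold (limma, adjusted p = 0.0594), and its second feature gave 0.02 ± 0.29. The same array 1 had low median levels of complex I (8.01, against 8.75 to 8.97 in the other arrays of its group) and of complex IV (7.01, against 8.25 to 8.79), in log2 units. It also had the highest Atp5if1 signal of the 44 arrays, 258.

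With R2 at 300 mg/kg/day for 24 h, members of complexes I, II and IV were called lower. Of 92 features 11 fell (12%), against 7.88% of all features called lower, and none rose. Without R2 arrays 1 and 2, whose Gapdh ratios stood apart, 4 of 92 features were lower against 4.92% of all features called lower in that fit, and the calls of all 9 genes named next were lost. The 11 features stand for 9 genes through their main feature: 6 of 27 in complex I (Ndufa8, Ndufb5, Ndufb8, Ndufc1, Ndufs8 and Ndufv3), Sdhaf2 of complex II, and Cox7b and Cox8a of complex IV. Of the 55 genes 45 were negative, with a median of -0.27 against -0.05 over all features.

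Among the complex I genes, Ndufs8 carries iron-sulfur clusters of the arm that takes electrons from NADH, and Ndufv3 sits near the NADH site, while Ndufa8, Ndufb5, Ndufb8 and Ndufc1 are accessory subunits. Ndufc1 read 533, 685, 740 and 652 in vehicle and 292, 376, 297, 396 and 581 after R2. The R2 livers were lower except array 5, which overlapped the lowest vehicle liver. The difference was -0.78 ± 0.21 (limma, adjusted p = 0.00703), and its second feature gave -0.57.

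Ndufa8 read 336, 512, 490 and 753 in vehicle and 203, 204, 318, 402 and 288 after R2, a difference of -0.87 ± 0.29 (adjusted p = 0.0302). Ndufs8 read 648, 619, 574 and 576 in vehicle and 402, 279, 359, 548 and 474 after R2, without overlap (-0.58 ± 0.20, adjusted p = 0.0400). Of its 3 other features, which were dimmer, none was called and 1 was negative. Ndufv3 differed by -0.57 ± 0.19 (adjusted p = 0.0345), with R2 livers between 533 and 917 and vehicle livers between 790 and 1356. Its second feature, far dimmer with a mean signal of 35.6, gave -0.04 and was not called.

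Ndufb5 read 137, 247, 243 and 257 in vehicle and 112, 114, 88.9, 178 and 155 after R2 (-0.76 ± 0.26, adjusted p = 0.0355). Its dimmer second feature went the other way without passing the test (0.50 ± 0.27). Ndufb8 read 1710, 1032, 1151 and 687 in vehicle and 685, 844, 876, 759 and 746 after R2, groups that overlapped through vehicle array 4 (-0.48 ± 0.17, adjusted p = 0.0463). A second feature of Ndufb8 was also called (-0.57 ± 0.17).

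Complex II, the succinate dehydrogenase, was represented by its catalytic subunit Sdha and by Sdhaf2, an assembly factor that helps Sdha take up its flavin. Sdhaf2 read 214, 155, 187 and 178 in vehicle and 105, 94.5, 197, 106 and 91.7 after R2. R2 array 3 lay within the vehicle range and the other 4 below it, a difference of -0.66 ± 0.21 (limma, adjusted p = 0.0240). Sdha differed by -0.28 ± 0.25 and did not pass. Neither gene was called in an R1 comparison with vehicle, where Sdhaf2 differed by -0.18 to -0.52.

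Complex III had no called gene of 4 against vehicle with either compound. Of all features, 1.24% to 15.3% were called in either direction in these comparisons, so a count over 4 genes says little. Uqcr11, a small accessory subunit, had the lowest adjusted p, at 100 mg/kg/day of R1 for 336 h (0.54 ± 0.20, adjusted p = 0.0723). With R2 the 4 genes (Cyc1, which encodes cytochrome c1, Uqcr11, the core protein Uqcrc2 and the iron-sulfur protein Uqcrfs1) differed by -0.34 to -0.11.

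In complex IV, cytochrome c oxidase, Cox8a read 2729, 2049, 2177 and 2230 in vehicle and 1163, 1316, 2221, 1671 and 1564 after R2. R2 array 3 lay in the vehicle range and the other 4 R2 livers below it. The means were 2296 ± 298 (SD, n = 4) and 1587 ± 407 (n = 5), a difference of -0.56 ± 0.13 (limma, adjusted p = 0.00242). Its 3 other features were also negative (-0.43 to -0.19) but not called. Cox7b, another small subunit, read 923, 934, 977 and 907 in vehicle and 458, 408, 364, 883 and 697 after R2, without overlap (-0.81 ± 0.27, adjusted p = 0.0362). The other 10 complex IV genes, among them Cox4i1 and Cox5b, did not pass.

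No ATP synthase gene was called through its main feature with R2. The second feature of Atp5po fell (754 ± 128, n = 5, against 1092 ± 155, n = 4; -0.54 ± 0.14, adjusted p = 0.00519), while its main feature gave -0.23 ± 0.12. The F1 genes Atp5f1a and Atp5f1c differed by -0.28 ± 0.14 and -0.39 ± 0.17 (adjusted p = 0.190 and 0.115). Atp5if1 differed by 0.21 ± 0.21.

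With any single array left out, the calls of Cox8a and Ndufc1 held, and each of the other 7 was lost for 5 to 7 of the 9 arrays. Of the 4 features called lower without R2 arrays 1 and 2, only 1, the second feature of Ndufb8, was among the 11 calls with all arrays, though all 11 kept a negative difference. The other 3 were Atp5f1c (-0.59 ± 0.18, adjusted p = 0.0264), a feature of Cox5b and a dimmer feature of Cox8a. In arrays 1 and 2 Atp5f1e read 1300 and 1512, against 799 to 839 in the other R2 livers and 889 to 992 in vehicle. Cox6c read 76.4 and 222 there, against 17.1 to 29.5 and 22.8 to 39.9. Leaving out a single array gave 4 calls without vehicle array 3 or R2 array 2, 5 without vehicle array 1 or R2 array 1, 6 without vehicle array 2 and 7 without vehicle array 4. Hepatocyte markers summed to 45259 to 47459 after R2 and 46977 to 51560 in vehicle, with Cps1 lower (-1.68 ± 0.22). The 5 acinar markers summed to 195 to 292 after R2 and 315 to 487 in vehicle, without overlap, with Cela1 and Amy2a3 called lower. The 4 bile duct markers summed to 71.4 to 106 and 37.6 to 72.2, with Epcam called higher. The part of these values in the result was not tested.

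**Figure D3:**
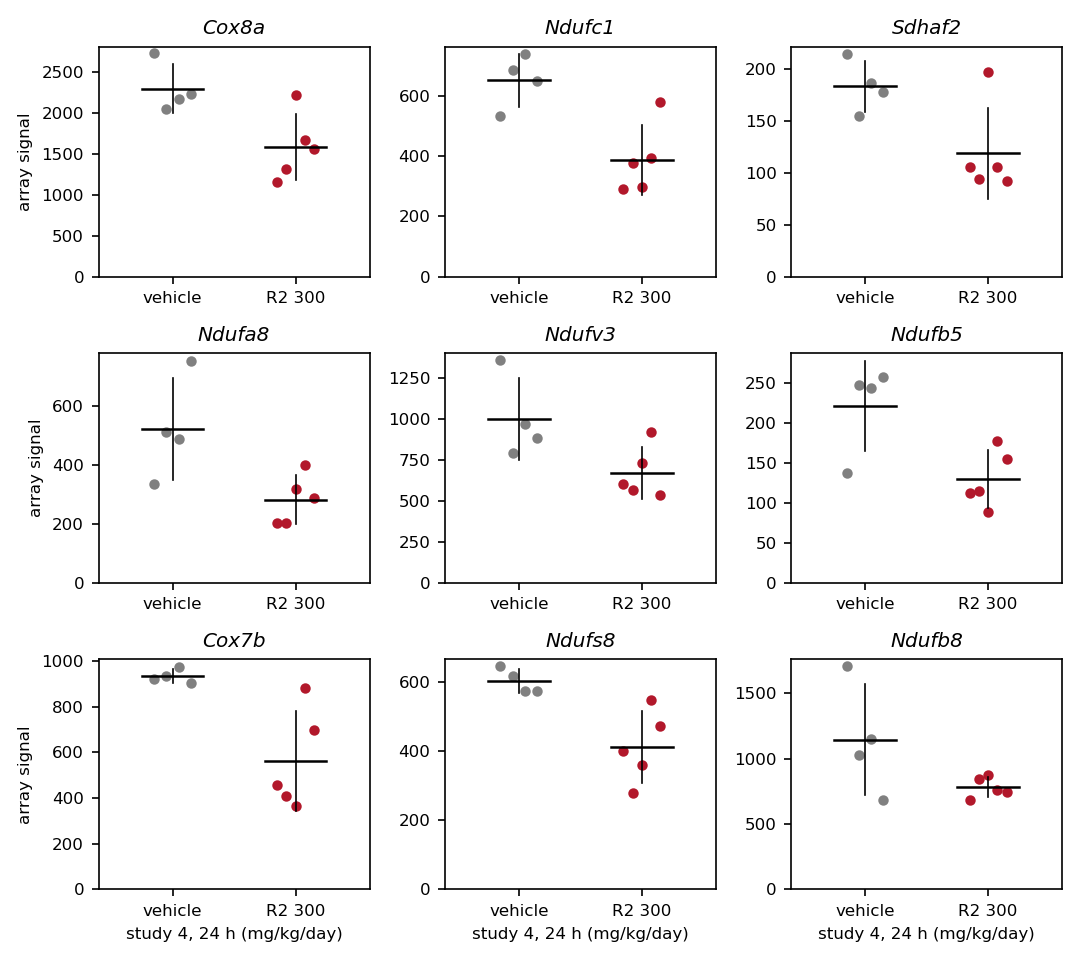
Array signal (vertical axes, linear from 0) of the 9 member genes called lower with R2 at 300 mg/kg/day, in 4 vehicle livers (grey) and 5 R2 livers (red) of study 4 at 24 h, in order of adjusted p. Horizontal lines are means and vertical lines 1 SD; of the 9 genes, Cox7b and Ndufs8 have groups that do not overlap.

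At 24 h the compounds can be set side by side only at unequal doses, 100 mg/kg/day for R1 and 300 mg/kg/day for R2, and were not tested against each other. The called genes were Atp5f1a, Atp5f1c and Atp5f1e for R1 and the 9 above for R2. Ndufa8 differed by -0.66 ± 0.35 with R1 and -0.87 ± 0.29 with R2, and Ndufb5 by -0.59 ± 0.31 and -0.76 ± 0.26. Atp5f1e differed by -0.61 ± 0.18 with R1 and 0.11 ± 0.15 with R2, but the R2 value was -0.20 ± 0.13 without R2 arrays 1 and 2 (limma, adjusted p = 0.439).

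**Figure D4:**
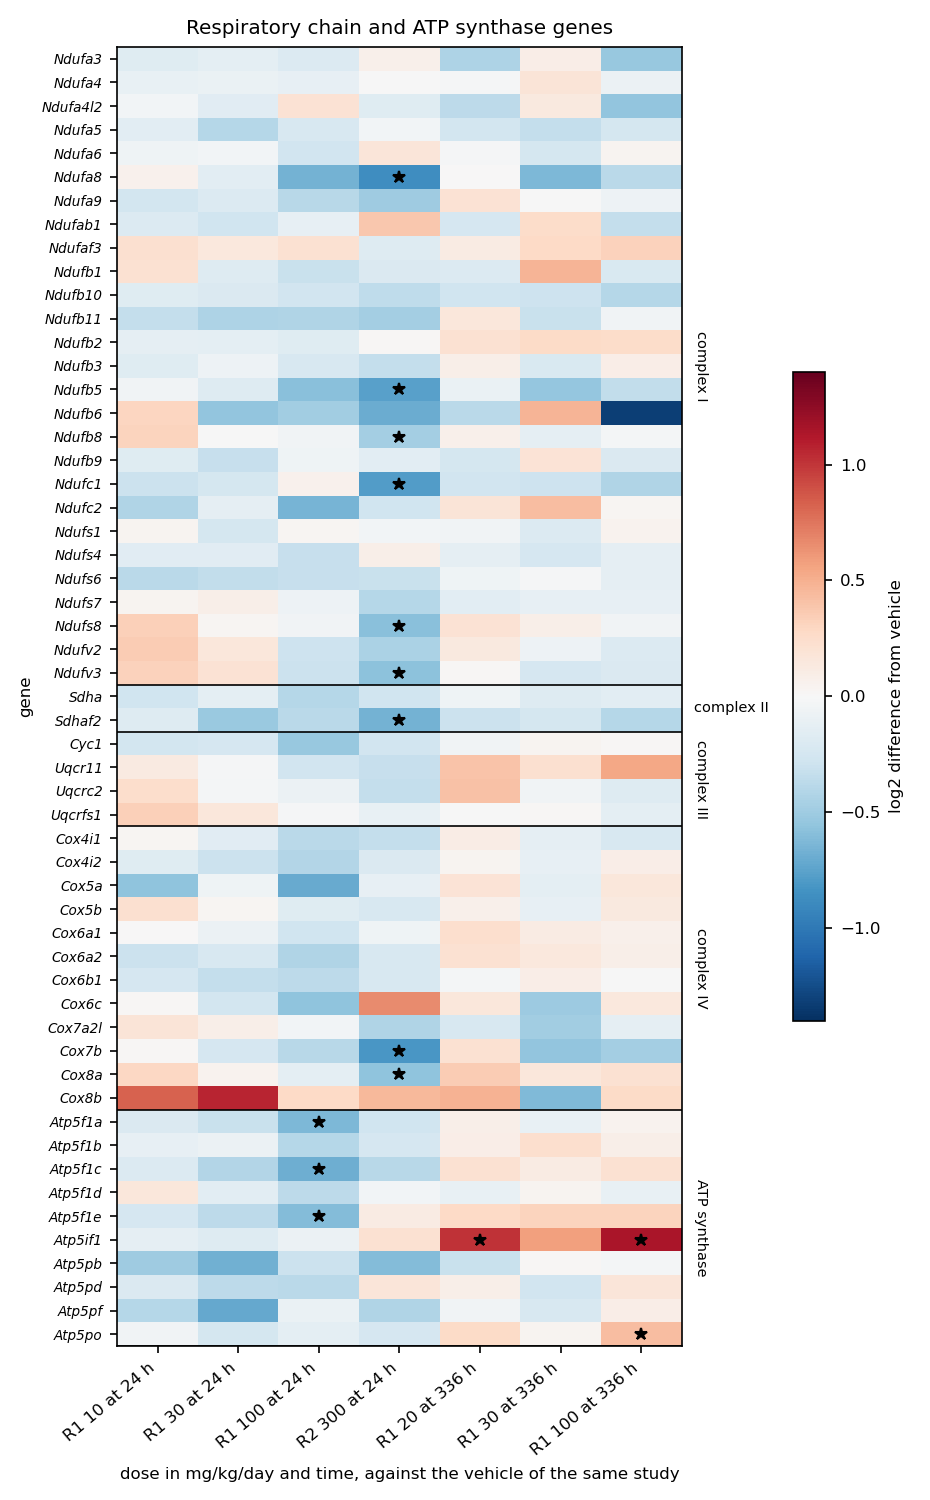
Log2 difference from the vehicle of the same study (colour, blue lower and red higher) for the 55 tested genes (rows, by complex) in the 7 comparisons with vehicle (columns, dose in mg/kg/day and time). Stars mark calls at an adjusted p under 0.05: 3 for R1 100 at 24 h, 9 for R2, and Atp5if1 and Atp5po at 336 h.

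The median level over the genes of a complex described each liver. For the 10 ATP synthase genes it was 9.30 to 9.45 log2 units in the vehicle livers of study 1 and 8.72 to 9.14 at 100 mg/kg/day. At 30 mg/kg/day it was 8.83 to 9.13, also below every vehicle liver, and at 10 mg/kg/day 9.0 to 9.33, overlapping vehicle. The lower level at 100 mg/kg/day was not particular to ATP synthase. Complex III read 8.52 to 8.66 there, against 8.92 to 9.07 in vehicle, and complex IV 7.39 to 7.78 against 7.86 to 8.14. The median over all 55 genes was 8.25 to 8.58 against 8.71 to 8.87. None of these overlapped vehicle, while complexes I and II did. For the 27 complex I genes the median was 8.40 to 8.88 in the vehicle livers of study 4 and 8.19 to 8.60 after R2. For the 12 complex IV genes it was 8.09 to 8.57 in the vehicle livers of study 3. With R1 at 30 mg/kg/day for 336 h it was 7.79 to 7.92 there, without overlap, while the other complexes overlapped vehicle. Hepatocyte markers did not overlap there either (37577 to 44198 against 45246 to 47460). Nor did red blood cell (1252 to 2524, 2771 to 4948) or acinar markers (198 to 261, 292 to 406). Clec4f was lower (138 to 209, 282 to 355) and bile duct markers higher (107 to 148, 43.3 to 106.6). Stellate cell and endothelial markers overlapped. The median beta-actin ratio was 1.66 against 1.88, with overlap. The part of these values in the complex IV level was not tested.

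**Figure D5:**
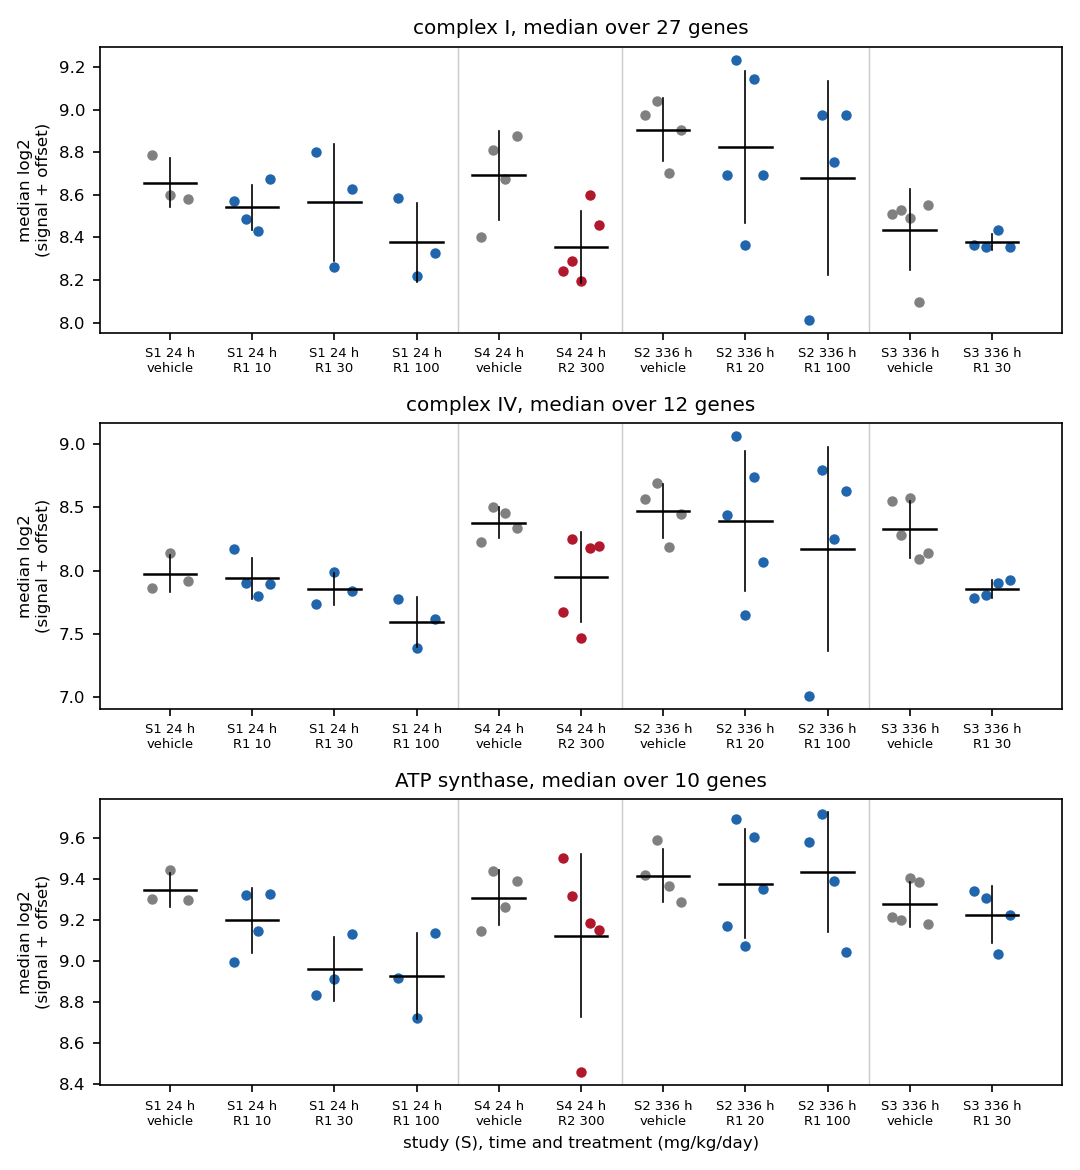
Median log2 (signal + 2.9) over the tested genes of complex I, complex IV and ATP synthase (vertical axes) in each liver by study, time and treatment (mg/kg/day). Points are livers, horizontal lines group means and vertical lines 1 SD. Array 1 of R1 100 in study 2 is the lowest for complex I and complex IV, and the complex I medians of the study 3 vehicle livers lie below those of study 2. The complex IV medians of R1 30 in study 3 lie below those of their vehicle.

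Members also differed between studies without any compound. Between the 336 h vehicle livers of study 3 and study 2, 15 of 92 features were lower (16.3%, against 9.29% of all features) and 4 higher (4.35%, against 8.55%). At gene level 9 of 27 complex I genes were lower in study 3: Ndufa3, Ndufa5, Ndufab1, Ndufaf3, Ndufb1, Ndufb2, Ndufb6, Ndufb10 and Ndufc2. Ndufs1, an iron-sulfur subunit of the arm that takes electrons from NADH, Sdha, Cox4i2 (an isoform of Cox4 known from lung) and Atp5f1a were higher.

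Ndufa3 read 610, 650, 524 and 738 in study 2 and 364, 311, 369, 118 and 84.0 in study 3, a difference of -1.55 ± 0.32 without overlap. Ndufb6 read 582, 716, 608 and 331 in study 2 and 206, 215, 215, 200 and 157 in study 3 (-1.44 ± 0.44). The second feature of Ndufb6 gave -0.37 and was not called. The 2 other features of Ndufaf3 (-0.58 and -0.19) were not called either, while the second of Ndufab1 was (-1.27). Sdha went the other way, from 264, 298, 219 and 248 to 446, 421, 517, 493 and 631 (0.95 ± 0.25). Atp5f1a read 295, 336, 301 and 334 in study 2 and 410, 584, 531, 553 and 581 in study 3 (0.73 ± 0.14). Study 3 arrays 4 and 5 were the lowest for Ndufa3, Ndufb1 and Ndufab1. The count of calls was 12 without study 2 array 2 and 10 without study 3 array 4.

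Between the 24 h vehicle livers of study 4 and study 1, 2 of 92 features were higher, against 2.63% of all features called higher, and none lower. Uqcrc2 read 418, 384, 457 and 443 in study 4 and 233, 180 and 135 in study 1 (1.24 ± 0.31, limma, adjusted p = 0.00976). Ndufa4 read 762, 881, 1085 and 923 against 559, 397 and 500 (0.91 ± 0.23). Only 1 was called without study 1 array 2, study 1 array 3 or study 4 array 3. Study, and whatever differed in handling between studies, cannot be told apart here.

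Other mitochondrial genes moved in both directions, and their counts are read beside the shares of all features called: 2.44% lower with R1 at 100 mg/kg/day for 24 h, 7.88% lower and 7.44% higher with R2, 5.2% lower and 5.11% higher with R1 at 100 mg/kg/day for 336 h, 1.89% lower at 20 mg/kg/day, and in either direction 11.3% at 30 mg/kg/day for 336 h and 1.24% at 10 mg/kg/day. Of 13 tested genes of pyruvate oxidation and the citric acid cycle, 3 fell with R1 at 100 mg/kg/day for 24 h. They were Idh2, which makes NADPH in the matrix (121 against 324; -1.38 ± 0.24), Pdk2, a kinase that switches off pyruvate dehydrogenase (-0.76 ± 0.20), and Pc, pyruvate carboxylase (-0.80 ± 0.25). With R2 the same 3 and Mdh2, malate dehydrogenase, fell (-1.02 for Idh2, -0.78 for Pdk2, -0.73 for Pc and -0.62 for Mdh2). At 336 h R1 at 100 mg/kg/day was instead accompanied by higher Idh2 (0.87 ± 0.20), Pdk2 (0.67 ± 0.18) and Dlat, the acetyltransferase of pyruvate dehydrogenase (1.04 ± 0.23). Pc (-1.71 ± 0.21) and Suclg1 (-0.75 ± 0.18) fell there. Pc also fell at 20 mg/kg/day (-1.0 ± 0.20) and, in study 3, at 30 mg/kg/day (-1.41 ± 0.20), where Idh2 rose (0.60 ± 0.19).

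Of 8 other electron donors and redox partners, Nnt, the transhydrogenase driven by the proton gradient, fell at 24 h with R1 at 100 mg/kg/day (-0.94 ± 0.28) and with R2 (-1.39 ± 0.23). Etfdh, which feeds electrons from fat oxidation to ubiquinone, fell at 336 h with R1 at 100 (-1.04 ± 0.29) and 30 mg/kg/day (-0.96 ± 0.28). R2 also lowered Aifm1 (-0.60) and raised Dhodh, at low signal (19.8 against 7.65). Of 10 carriers and channels, the carnitine carrier Slc25a20 fell with R1 at 100 mg/kg/day for 336 h (121 against 389; -1.66 ± 0.18) and rose with R2 (0.54 ± 0.17). The ADP/ATP carrier Slc25a5 fell with R2 (-0.49 ± 0.13), and the outer membrane channel Vdac1 rose at 10 mg/kg/day of R1 (0.98 ± 0.21).

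Of 8 chaperone and import genes, the chaperonin Hspd1 rose with R1 at 30 mg/kg/day for 336 h (0.90 ± 0.22), and its partner Hspe1 (-1.05 ± 0.21) and the prohibitin Phb2 (-0.53 ± 0.18) fell with R2. Neither of the 2 biogenesis regulators on the array nor the 1 further assembly gene passed the test in any comparison with vehicle.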

How the data were processed

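The deposited table holds 1 intensity value per feature and array, made by the authors with MAS5 per the submitters' processing notes. The sorted values are the same in all 44 arrays (largest difference 0), so the arrays had been forced to a common distribution, a step the labels do not mention. Symbols came from GEO's platform annotation: of 8799 features 59 are controls and were left out, 308 have several symbols and 1426 none. Log2(signal + 2.9), the offset being percentile 20 of the signals, entered a limma fit (3.58.1, under R 4.3.3) of 11 group means over all 44 arrays (33 residual degrees of freedom, eBayes with a mean-variance trend, 2-sided). Features with a highest group mean of at least 9.17 (percentile 40) were tested, and p-values were Benjamini-Hochberg adjusted within each of 13 comparisons. A log2 difference understates the change of dim features. The fit was tested on simulated data. The number of arrays limits the precision.

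The members and gene lists were chosen with earlier results of these data known. Named are members called against vehicle, shown array by array; from other lists, called genes, up to 6 a comparison. Alternatives were other offsets and filters, no trend, centring, array weights, a replicate block, studies fitted alone, 1 feature per gene and each array left out. Promoter windows came from RefSeq's GRCr8 table. A genome was not used here. Figures were drawn with matplotlib 3.10.9.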

Additional observations from a re-analysis of the deposited data

Results flagged for a closer look

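Of 67 sets of 4 or 5 values examined, 6 held a value far from the rest, where chance alone flags about 1 in 20 sets. The median level of all members was 8.23 log2 units in array 3 of the R2 group, against 8.57 to 8.66 in the other 4. The median of complex I was 8.10 in array 4 of the study 3 vehicle group, against 8.49 to 8.56 in the others. It was 8.43 in array 3 of R1 30 at 336 h, against 8.36 to 8.37 in the others. Atp5if1 read 258 in array 1 of R1 100 at 336 h, against 183 to 186 in the others. Sdhaf2 read 197 in array 3 of the R2 group, against 91.7 to 106. Ndufb5 read 137 in array 1 of the study 4 vehicle group, against 243 to 257.

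The effect of R1 at 100 mg/kg/day differed between 336 h and 24 h by the test of the difference itself in 3 genes: by 1.23 for Atp5if1, 0.90 for Atp5f1c and 0.92 for Atp5f1e, in log2 units.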

How the results depend on the processing

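No named call changed direction under any alternative, and those of Atp5if1 at 20 and 100 mg/kg/day for 336 h (19 and 18 alternatives) and of Atp5f1e between times (23 alternatives) were kept in all; 105 of the 292 alternative values of the other named calls lost the call. Member calls for R1 100 at 24 h (3) were 1 with no trend, 5 with array weights and 0 to 3 with 1 array left out. For R2 (11) they were 7 with no trend, 3 with study 4 fitted alone, 4 without R2 arrays 1 and 2 (chosen after seeing the data) and 4 to 10 with 1 array left out. For R1 30 at 336 h (0) they were 1 with the offset at percentile 10, at percentile 40 or with no trend, 2 with the filter at percentile 60 or study 3 alone, 3 with array weights and 0 to 1 with 1 array left out. For 100 against 10 mg/kg/day (1) they were 2 with array weights or the replicate block and 3 with study 1 alone. For 100 against 20 mg/kg/day (2) they were 1 with the offset at percentile 40, no filter, the filter at percentile 60, array weights or study 2 alone, and 1 to 2 with 1 array left out. With 1 array left out the difference between times at 100 mg/kg/day (5) gave 2 to 6 and R1 100 at 336 h (4) gave 3 to 6. The vehicle comparison of studies 3 and 2 (19) gave 31 with array weights and 10 to 20 with 1 array left out, and that of studies 4 and 1 (2) gave 4 and 1 to 3. The cause was not tested. Of 38 same-numbered pairs of arrays 4 correlated above 0.1 (-0.0899 to 0.154). These low values gave no clear sign of pairing by number but cannot exclude it, and no block was fitted between studies. Where 1 array was left out of 3, the spread is that of all groups.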
